A study of Mus musculus with 19 samples.

Results

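The 37 genes described here are glycolytic enzymes, the transporters and regulators around them, and genes of the response to low oxygen. They were chosen by name, with no expression value in the rule, and all 37 were found among the 22521 genes of the deposited RPKM tables (read counts scaled by transcript length and by library size). By role they divide into 15 glycolytic enzymes, 3 transporters of glucose and lactate, 2 regulators of glycolytic flux, 4 subunits and prolyl hydroxylases of hypoxia-inducible factor (HIF), and 13 other genes induced by hypoxia.

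RNA-seq libraries came from mouse extra-embryonic ectoderm (ExE) at embryonic day 6.5 and from morulae. Maternal knockout (matKO) embryos had Eed-fl/fl; Gdf9-Cre mothers, in which Cre is driven by an oocyte promoter and removes the floxed Eed gene before fertilisation. Control (CTR) embryos had Eed-fl/fl mothers without Cre. All fathers were wild type, so matKO embryos inherited a deleted maternal and an intact paternal Eed allele, and in both groups the cross was B6/129 mother by PWK father. In ExE there were 4 matKO female, 5 matKO male, 2 CTR female and 2 CTR male libraries, and in morulae 2 matKO and 2 CTR libraries of unlabelled sex. EED is a core subunit of Polycomb repressive complex 2, which places the repressive histone mark H3K27me3.

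Glycolysis turns glucose into pyruvate in the cytosol, and lactate dehydrogenase can then reduce pyruvate to lactate, which leaves the cell through monocarboxylate transporters. HIF is a dimer whose alpha subunits are hydroxylated by the EGLN enzymes when oxygen is present and are then destroyed, and when oxygen is low HIF binds a short DNA element and raises transcription of glycolytic and other genes. Early cleavage embryos of the mouse use pyruvate and lactate as fuel and take up more glucose towards the blastocyst stage, and trophoblast of the early postimplantation embryo develops in a low-oxygen surrounding.

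Promoters are shown for the 4 members with the largest stage difference in CTR among those whose window holds the HIF element, to show where its letters lie. Ldha had 2 windows and Eno1 had 3, and for each a window with the most matches is shown. Tpi1, whose stage difference was second to that of Ldha in CTR and the largest in matKO, is left out by this choice because its window held no match, as did that of Gpi1. RefSeq promoter windows (GRCm38.p6) were found for 34 of the 37 members, Ero1l under its current symbol, while Slc2a3, Epas1 and Ndrg1 had none. The 250 bases before each transcription start were searched on both strands for the HIF element in its 2 spellings, ACGTG and GCGTG, and matches are in capitals. Of the 51 windows of members, 41 held either spelling (80.4%), against 12679 of 32851 windows in the whole table (38.6%). By spelling, ACGTG was in 49.0% of the members' windows and 16.6% of all windows, and GCGTG was in 54.9% and 28.2%. Several members were chosen as known hypoxia-induced genes and windows of 1 gene can overlap, so these shares describe the windows only. The E-box CACGTG, which other factors also bind, holds ACGTG on both strands, and Ldha has this sequence at 2 places.
Ldha, chr7:46845554-46845803, plus strand: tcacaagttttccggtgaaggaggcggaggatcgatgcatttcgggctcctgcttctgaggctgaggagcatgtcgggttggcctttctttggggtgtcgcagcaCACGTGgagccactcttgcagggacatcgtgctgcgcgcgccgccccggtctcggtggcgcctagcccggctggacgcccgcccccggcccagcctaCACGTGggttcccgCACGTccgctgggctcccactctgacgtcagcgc
Eno1, chr4:150236947-150237196, plus strand: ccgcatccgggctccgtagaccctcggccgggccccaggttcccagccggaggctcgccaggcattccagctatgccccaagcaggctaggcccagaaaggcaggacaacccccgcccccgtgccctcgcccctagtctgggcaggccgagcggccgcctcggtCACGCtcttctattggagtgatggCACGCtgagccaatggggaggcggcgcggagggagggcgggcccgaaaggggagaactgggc
Slc16a3, chr11:120948817-120949066, plus strand: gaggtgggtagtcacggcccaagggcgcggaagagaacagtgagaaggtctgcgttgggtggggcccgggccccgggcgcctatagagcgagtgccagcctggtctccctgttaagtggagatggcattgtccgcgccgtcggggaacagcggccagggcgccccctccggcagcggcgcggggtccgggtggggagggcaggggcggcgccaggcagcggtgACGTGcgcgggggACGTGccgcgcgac
Pgk1, chrX:106186850-106187099, plus strand: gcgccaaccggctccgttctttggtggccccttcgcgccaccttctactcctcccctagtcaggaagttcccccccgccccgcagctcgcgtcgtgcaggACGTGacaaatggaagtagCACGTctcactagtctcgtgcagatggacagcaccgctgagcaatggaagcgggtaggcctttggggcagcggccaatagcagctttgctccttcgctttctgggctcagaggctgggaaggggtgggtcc

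The labels were checked against known genes. The maternal share of Eed reads or RPKM was 11.1 to 17.1% in matKO ExE against 43.9 to 47.7% in CTR ExE, and 16.02 and 20.9% in matKO morulae against 37.7 and 46.0% in CTR morulae. All 9 listed ExE markers averaged at least 1 RPKM in ExE of either genotype. In morulae 4 of the 9 did so in matKO and 5 in CTR, while Bmp4 and Ets2 averaged under 0.5 RPKM in either group. The 8 listed morula markers did not set morulae apart. They summed to 714 to 1994 RPKM in matKO ExE and 891 to 1158 RPKM in CTR ExE. In morulae their sums were lower, 309 to 340 RPKM in matKO and 237 to 498 RPKM in CTR. Markers listed for epiblast, some of which ExE also expresses, summed to 386 to 905 RPKM in matKO ExE and 568.2 to 716 RPKM in CTR ExE, and the 5 blood markers summed to at most 0.436 RPKM in any ExE library. Males 4 and 5 of matKO stood apart: 6 markers of ectoplacental cone and giant cells, of which Tpbpa, Prl3d1, Prl2c2 and Ctsq averaged under 0.5 RPKM in matKO and in CTR, summed to 674 and 504 RPKM there, against 55.8 to 255 RPKM in the other matKO libraries and 127 to 179 RPKM in CTR. The 7 visceral endoderm markers summed to 50.4 RPKM in matKO male 5 against 1.15 to 13.7 RPKM in the other matKO libraries and 6.51 to 9.68 RPKM in CTR. In morulae these markers summed to 27.2 to 120 RPKM in matKO and 25.1 to 129 RPKM in CTR. The 7 decidua markers, of which 1 averaged at least 1 RPKM, summed to 48.5 to 107 RPKM in matKO morulae and 20.9 to 116 RPKM in CTR morulae. In ExE the decidua sum was at most 4.03 RPKM. Whether libraries stem from different embryos or litters is not stated, so a p-value here reflects only how much libraries vary. In these bulk samples fewer cells of a type and less RNA per cell cannot be told apart.

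The largest contrast in the members lay between the stages. Glycolytic enzymes, the lactate exporter and the HIF-1 alpha gene had much higher RPKM in ExE than in morulae of the same genotype, whereas the HIF-2 alpha gene Epas1 was lower. The other hypoxia-induced genes were mixed, with 5 higher and 3 lower of 13 in matKO and 4 higher and 3 lower in CTR. A member was counted as higher or lower when the group means of log2(RPKM + 1) differed by more than 1 and no ExE library overlapped a morula library. By this count 23 members were higher and 5 lower in ExE of matKO, where 24.0% of 11430 genes were higher and 20.1% lower, and 23 were higher and 5 lower in ExE of CTR, where 24.7% of 11537 genes were higher and 19.1% lower. For 33 of the 37 members the count was the same in both genotypes. The median member differed by 2.56 in matKO and 2.55 in CTR on the log2 scale, against 0.19 over all genes in either. The stages were deposited in separate tables, so stage and table cannot be told apart, and no test was made.

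**Figure D1:**
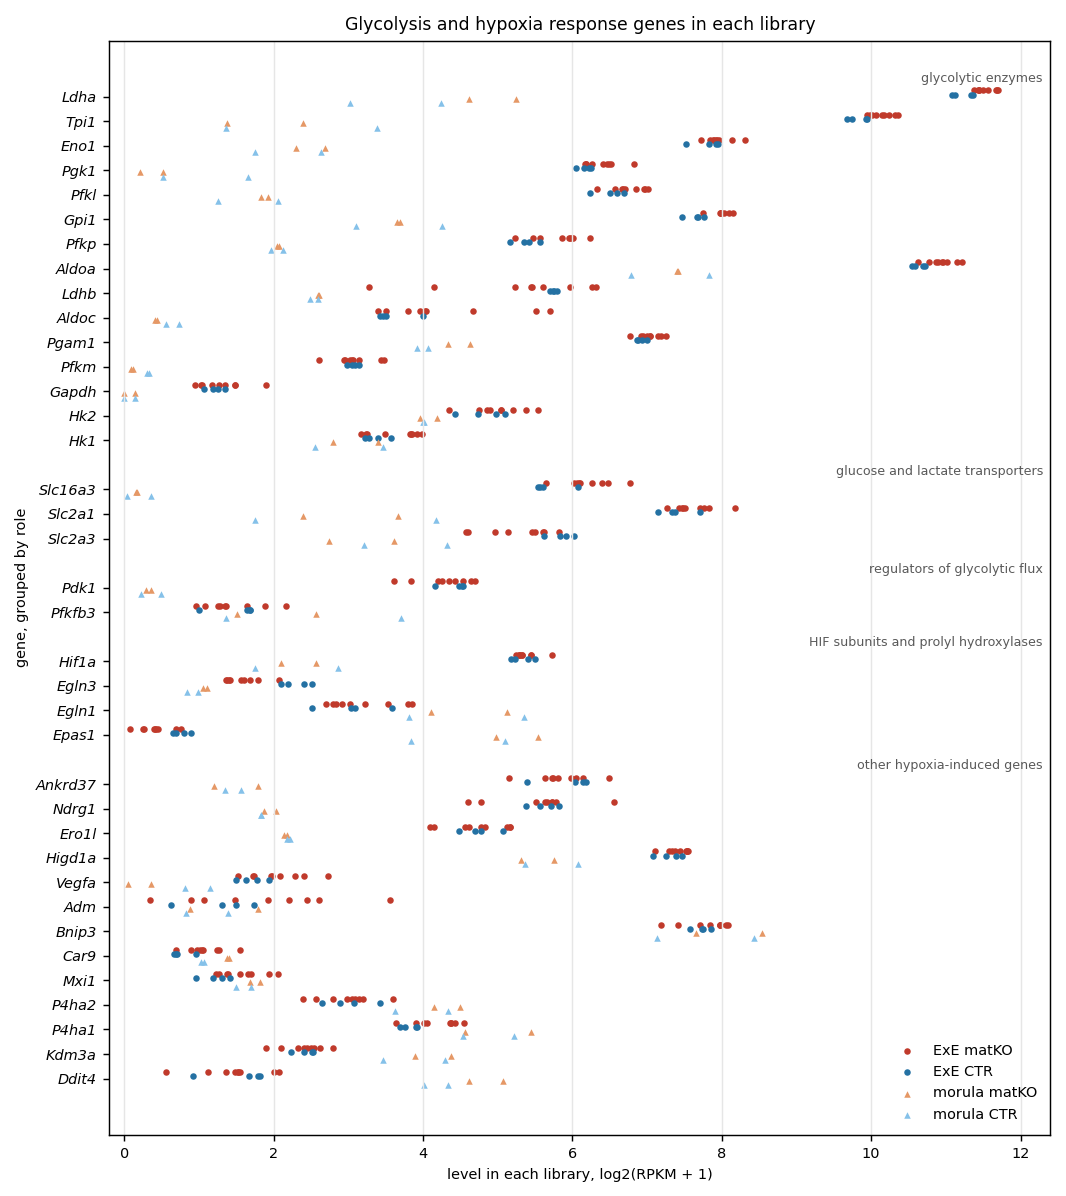
Level of each of the 37 members in each library, as log2(RPKM + 1), with genes grouped by role and ordered within a role by the ExE minus morula difference in CTR; each point is 1 library. ExE points of Ldha, Tpi1, Eno1, Pgk1, Pfkl and Slc16a3 lie far to the right of the morula points, while Epas1, Egln1, Kdm3a and Ddit4 lie to the left.

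Of the 15 glycolytic enzymes, 13 were higher in ExE in matKO and 13 in CTR, and none was lower. Ldha encodes the muscle-type lactate dehydrogenase subunit. It ranged from 2651 to 3336 RPKM in matKO ExE with a median of 2902, against 23.6 and 36.7 RPKM in matKO morulae. In CTR, Ldha stood at 2219, 2636, 2160 and 2585 RPKM in ExE against 7.15 and 17.9 RPKM in morulae. The lowest ExE library was thus far above the highest morula library, and the log2 difference was 6.61 in matKO and 7.59 in CTR.

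Tpi1, triosephosphate isomerase, ranged from 982 to 1313 RPKM in matKO ExE, against 1.60 and 4.24 RPKM in matKO morulae. CTR values of Tpi1 were 980.3, 971, 860.1 and 818 RPKM in ExE and 1.57 and 9.44 RPKM in morulae. The stages did not overlap, but the 2 morula libraries of a genotype differed widely, and library 2 had the higher value in each. Eno1, the ubiquitous enolase, had 211 to 317 RPKM in matKO ExE and 3.90 and 5.41 RPKM in matKO morulae, and 242, 226, 182 and 247 RPKM in CTR ExE against 2.36 and 5.19 RPKM in CTR morulae. Pgk1, the X-linked phosphoglycerate kinase, had 71.2 to 112 RPKM in matKO ExE and 0.155 and 0.427 RPKM in matKO morulae. In CTR, Pgk1 had 65.2, 73.6, 74.7 and 70.6 RPKM in ExE and 0.427 and 2.15 RPKM in morulae. Eno1 and Pgk1 thus shared the pattern of Ldha, with no overlap of the stages. Pfkl, the liver-type phosphofructokinase of the committed step, had 79.7 to 129 RPKM in matKO ExE against 2.81 and 2.57 RPKM in matKO morulae, and 96.2, 89.5, 74.5 and 102 RPKM in CTR ExE against 1.38 and 3.17 RPKM in CTR morulae. The stages did not overlap for Pfkl either.

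The enzymes with the least stage difference were the hexokinases, which phosphorylate glucose on entry. Hk2 averaged 32.0 ± 7.81 RPKM in matKO ExE and 15.9 RPKM in matKO morulae, and 27.5 ± 5.56 RPKM in CTR ExE and 15.05 RPKM in CTR morulae (SD, n = 9 and 4 in ExE, 2 in each morula group). Hk1 overlapped between stages in CTR, with 8.34 to 10.9 RPKM in ExE and 10.1 and 4.86 RPKM in morulae. Gapdh was listed at 0.935 to 2.72 RPKM in matKO ExE, 1.102 to 1.55 RPKM in CTR ExE and at 0 in 1 library of each morula group. Gapdh, Pgk1, Eno1, Ldha and Tpi1 all have near-identical processed copies in the genome, and how shared reads were assigned is not given in the sources used here, so their levels are uncertain.

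Among the transporters, Slc16a3 (MCT4), which exports lactate, had 49.1 to 108 RPKM in matKO ExE, against 0.114 and 0.120 RPKM in matKO morulae. CTR values of Slc16a3 were 66.6, 47.8, 46.4 and 45.5 RPKM in ExE and 0.278 and 0.025 RPKM in morulae. The gene was thus near the bottom of the scale in every morula library and well expressed in every ExE library. The glucose transporters Slc2a1 (GLUT1) and Slc2a3 (GLUT3) were also higher in ExE, by 4.59 and 2.08 in matKO and by 4.43 and 2.08 in CTR on the log2 scale. Pdk1, which inhibits pyruvate dehydrogenase and so keeps pyruvate from the mitochondrial cycle, was higher in ExE by 3.96 in matKO and 4.07 in CTR. Pfkfb3, which makes the activator of phosphofructokinase, overlapped between the stages: it had 0.947 to 3.49 RPKM in matKO ExE and 4.92 and 1.84 RPKM in matKO morulae, and 2.196, 2.21, 2.12 and 0.9998 RPKM in CTR ExE and 11.98 and 1.58 RPKM in CTR morulae.

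The HIF alpha subunits differed in opposite directions between the stages. Hif1a had 36.8 to 51.8 RPKM in matKO ExE against 3.27 and 4.92 RPKM in matKO morulae, and 36.7, 41.6, 35.3 and 44.1 RPKM in CTR ExE against 2.35 and 6.29 RPKM in CTR morulae. Epas1 (HIF-2 alpha) had 0.0523 to 0.686 RPKM in matKO ExE against 30.6 and 45.6 RPKM in matKO morulae, and 0.621, 0.737, 0.853 and 0.566 RPKM in CTR ExE against 13.3 and 33.2 RPKM in CTR morulae. Neither gene overlapped between stages, and the higher alpha subunit RNA, per length, was Epas1 in every morula library and Hif1a in every ExE library. The prolyl hydroxylase gene Egln1 was lower in ExE, with 5.53 to 13.4 RPKM in matKO ExE and 16.2 and 33.8 RPKM in matKO morulae, and 7.19, 11.03, 7.54 and 4.70 RPKM in CTR ExE and 13.02 and 40.002 RPKM in CTR morulae. Egln3 met the count as higher in ExE in CTR, by 1.38 on the log2 scale, and not in matKO, where the difference was 0.51.

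The 13 other hypoxia-induced genes had medians of -0.17 in matKO and -0.06 in CTR on the log2 scale, against 0.19 over all genes in either. Ankrd37, an ankyrin-repeat gene, was higher by 4.36 in matKO and 4.48 in CTR, and Ndrg1, a stress-responsive gene, by 3.60 in matKO and 3.79 in CTR. Ero1l (an oxidase of the endoplasmic reticulum) and Higd1a (a mitochondrial membrane protein) were higher as well, by 2.56 and 1.87 in matKO and 2.55 and 1.58 in CTR. Ddit4 (REDD1), an inhibitor of mTORC1, had 0.468 to 3.22 RPKM in matKO ExE against 23.5 and 32.7 RPKM in matKO morulae, and 2.18, 2.44, 2.51 and 0.899 RPKM in CTR ExE against 19.1 and 15.2 RPKM in CTR morulae. Kdm3a, a histone demethylase, had 2.72 to 5.96 RPKM in matKO ExE against 19.7 and 13.8 RPKM in matKO morulae, and 4.75, 4.72, 4.31 and 3.68 RPKM in CTR ExE against 18.7 and 9.98 RPKM in CTR morulae. Both were lower in every ExE library than in any morula library. P4ha1, a collagen prolyl hydroxylase subunit, had 11.5 to 22.5 RPKM in matKO ExE against 22.7 and 42.6 RPKM in matKO morulae, and 14.1, 13.99, 11.97 and 12.6 RPKM in CTR ExE against 22.1 and 36.2 RPKM in CTR morulae. It met the count as lower in CTR only, and the related subunit gene P4ha2 in matKO only. Neither gene overlapped between the stages in either genotype. Each missed the count only by the threshold of 1, P4ha1 at -0.82 in matKO and P4ha2 at -0.97 in CTR on the log2 scale. Bnip3, a mitophagy receptor, was abundant at both stages and overlapped, at 145 to 270 RPKM in matKO ExE and 371 and 201 RPKM in matKO morulae, and 189 to 230 RPKM in CTR ExE and 344 and 140 RPKM in CTR morulae.

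Because RPKM are per length, paralogs can be set side by side within a library. For Ldha, which has near-identical processed copies, how shared reads were assigned is not given. Its share, and how far that share differs between stages, is therefore uncertain. Ldha made up 98.4 ± 0.84% of Ldha plus Ldhb RPKM in matKO ExE (SD, n = 9) against 82.2 and 88.0% in matKO morulae, and 97.8 ± 0.17% in CTR ExE (SD, n = 4) against 58.8 and 79.5% in CTR morulae. Slc2a1 made up 83.4 ± 5.24% of Slc2a1 plus Slc2a3 in matKO ExE against 42.9 and 51.1% in matKO morulae, and 74.4 ± 4.59% in CTR ExE against 22.3 and 47.2% in CTR morulae. For phosphofructokinase the leading paralog was Pfkl in ExE, with 62.8 ± 3.81% in matKO and 65.2 ± 2.04% in CTR, and its share was 46.1 and 44.5% in matKO morulae and 27.6 and 50.4% in CTR morulae. None of these 3 shares overlapped between stages. Hk1 in the hexokinase pair overlapped, with 15.8 to 41.1% in matKO ExE and 39.5 and 25.7% in matKO morulae, and Aldoa made up 97.9 to 99.5% of Aldoa plus Aldoc in matKO ExE and 99.1 to 99.4% in CTR ExE.

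**Figure D2:**
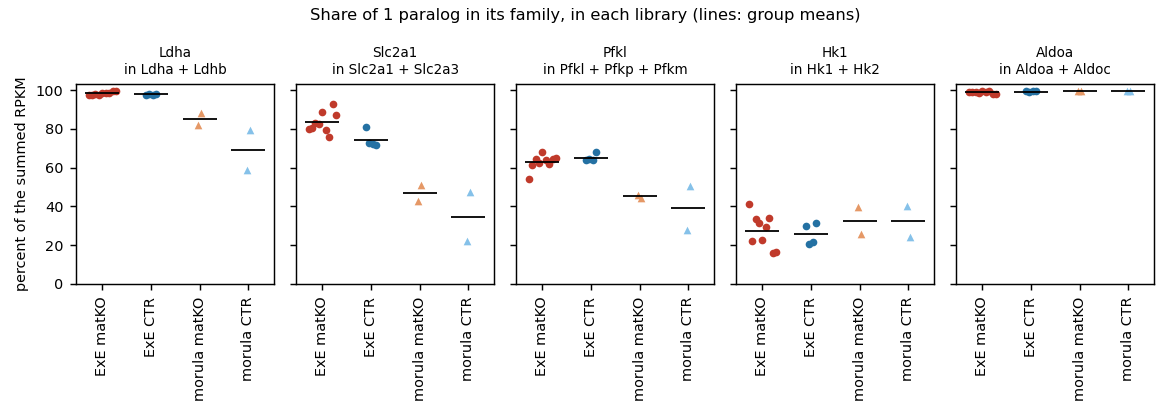
Share of 1 paralog in the summed RPKM of its family, in percent, in each library (points) with the group mean (line). The Ldha, Slc2a1 and Pfkl shares are higher in all ExE libraries than in any morula library, and the Hk1 and Aldoa shares are not.

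Genes next to these pathways were compared between stages in the same way, where 24.0% of all genes were higher and 20.1% lower in ExE in matKO, and 24.7% higher and 19.1% lower in CTR. Of 16 further glycolysis genes compared, 9 were higher and 5 lower in matKO, and 9 higher and 4 lower in CTR. Among them Pkm2, pyruvate kinase, averaged 890.3 ± 113 RPKM in CTR ExE (SD, n = 4) and 12.1 ± 13.1 RPKM in CTR morulae (SD, n = 2), and the fructose and glucose transporter gene Slc2a8 averaged 1.74 ± 0.35 RPKM in CTR ExE and 29.2 ± 6.22 RPKM in CTR morulae. Of 22 genes of pyruvate dehydrogenase and the TCA cycle, 8 were higher and 2 lower in matKO, and 9 higher and 1 lower in CTR. Their median was 0.57 in matKO and 0.62 in CTR on the log2 scale, against 3.75 in matKO and 3.33 in CTR for the 15 glycolytic enzymes. Of 7 pentose phosphate genes 3 were higher and 1 lower in matKO and in CTR. Further hypoxia-induced genes numbered 7 higher and 5 lower of 20 in matKO, and 7 higher and 3 lower of 18 in CTR. Of 12 further HIF pathway genes 1 was higher and 2 lower in either genotype: Vhl, the subunit that recognises hydroxylated HIF alpha, averaged 10.1 ± 1.44 RPKM in CTR ExE and 102 ± 53.0 RPKM in CTR morulae.

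In ExE, no member passed the test for a difference between matKO and CTR. With limma on log2(RPKM + 1), averaged over the sexes, 0 of the 36 members tested had an adjusted p under 0.05 (Benjamini-Hochberg over all genes), where 0.0504% of 9915 genes did. At an unadjusted p under 0.05 there were 11 members (30.6%), 9 higher and 2 lower in matKO, against 16.1% of all genes tested. The median member differed by 0.13 on the log2 scale and the median gene by 0.01. Epas1 was left out of the test because it averaged under 1 RPKM. Every matKO library lay above every CTR library for Ldha and Tpi1, and below for Egln3; of all genes tested 1.55% lay above in this way and 1.38% below.

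**Figure D3:**
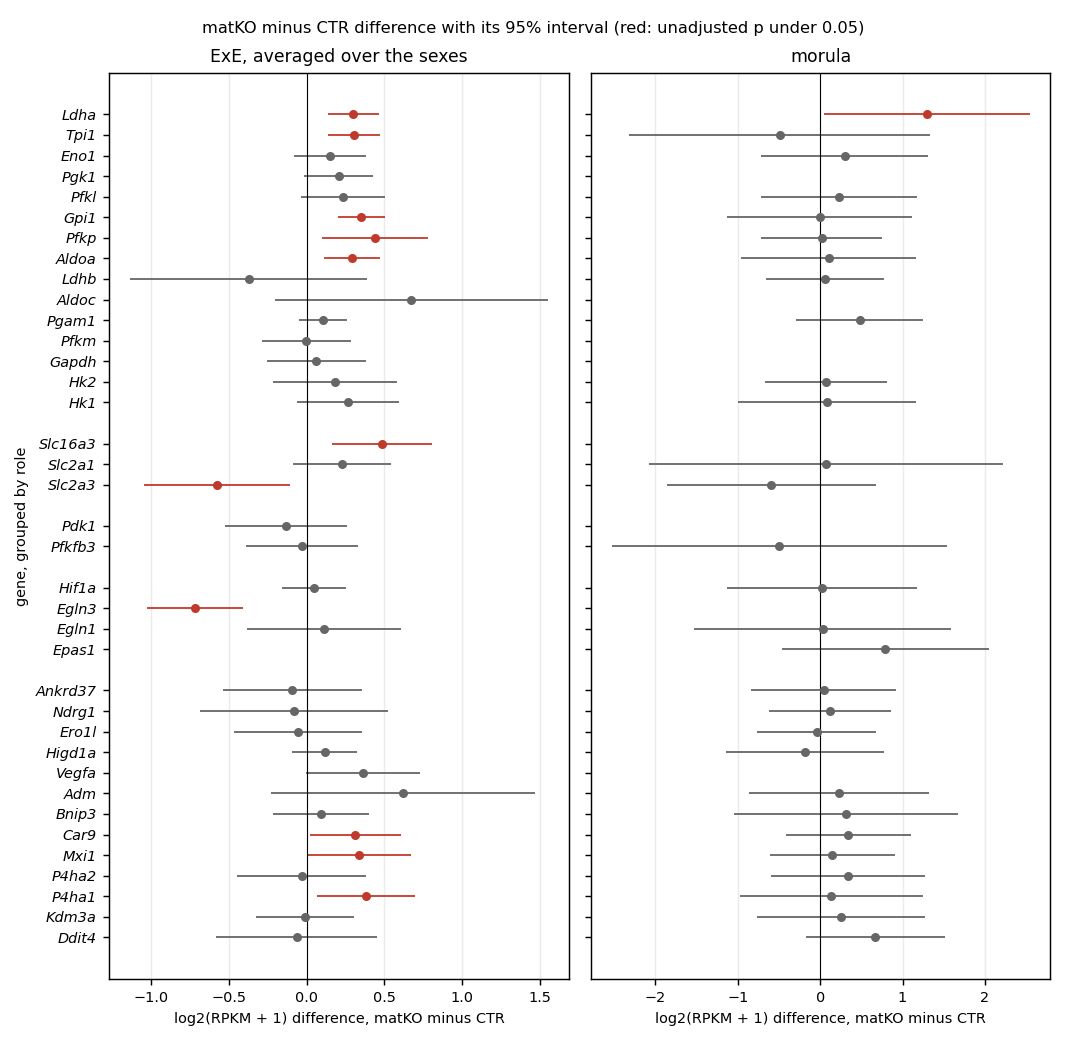
Difference in log2(RPKM + 1), matKO minus CTR, with its 95% interval from limma, in ExE averaged over the sexes (left) and in morulae (right); genes without a point were under 1 RPKM on average. Red points have an unadjusted p under 0.05, and none has an adjusted p under 0.05.

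None of the 15 glycolytic enzymes passed. Their log2 differences were above 0 for 13 of 15, against 53.5% of all genes tested, with a median of 0.23 against 0.01, and 5 of the 15 had an unadjusted p under 0.05, all above 0, against 16.1% of all genes. Gpi1, glucose-6-phosphate isomerase, on chromosome 7 like Ldha, ranged from 215 to 282 RPKM in matKO with a median of 254, against 216, 205, 176 and 202 RPKM in CTR. The groups touched only at the lowest matKO library, female 2, and the highest CTR library, and the log2 difference of 0.35 ± 0.07 (SE) had an adjusted p of 0.0857 by limma. Ldha had a median of 2902 RPKM in matKO against 2219, 2636, 2160 and 2585 RPKM in CTR, a log2 difference of 0.30 ± 0.07 (SE) with an adjusted p of 0.123 by limma. Tpi1 had 982 to 1313 RPKM in matKO with a median of 1133, against 980.3, 971, 860.1 and 818 RPKM in CTR, a log2 difference of 0.31 ± 0.08 (SE) with an adjusted p of 0.123 by limma. In each of these 3 genes the means differed by somewhat more than the range within CTR. Aldoa, fructose-bisphosphate aldolase, averaged 1977 ± 244 RPKM in matKO and 1593 ± 95.2 RPKM in CTR (SD, n = 9 and 4). Pfkp, the platelet-type phosphofructokinase, averaged 56.2 ± 11.8 RPKM in matKO and 40.8 ± 4.83 RPKM in CTR. Both groups overlapped in Aldoa and Pfkp, with limma adjusted p of 0.139 and 0.211.

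Of the transporters, Slc16a3 was at 49.1 to 108 RPKM in matKO with a median of 68.0, against 66.6, 47.8, 46.4 and 45.5 RPKM in CTR, and Slc2a3 was at 22.8 to 55.2 RPKM in matKO with a median of 43.0, against 48.0, 59.5, 63.9 and 56.0 RPKM in CTR. Their log2 differences had opposite signs, 0.49 ± 0.15 and -0.57 ± 0.22 (SE), with overlap of the groups in each and limma adjusted p of 0.158 and 0.228. Slc2a1 differed by 0.23 ± 0.15 with an adjusted p of 0.46 by limma. The flux regulators Pdk1 and Pfkfb3 differed by -0.13 and -0.03.

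Egln3, a prolyl hydroxylase gene on chromosome 12 that is itself induced by HIF, was the member with the largest log2 difference, -0.72 ± 0.14 (SE). It had 2.05, 2.196, 1.59 and 1.95 RPKM in matKO females and 1.57, 3.19, 2.44, 1.65 and 1.67 RPKM in matKO males, against 3.27 and 4.28 RPKM in CTR females and 4.71 and 3.55 RPKM in CTR males. All matKO libraries were lower than all CTR libraries, in a gene near the bottom of the RPKM range, and the adjusted p was 0.0857 by limma. Without matKO male 2, the highest matKO library, the limma adjusted p of Egln3 was 0.0343. Without matKO female 2, the lowest matKO library for Gpi1, that of Gpi1 was 0.0393. Each of these fits left out the matKO library nearest to CTR. Over all alternative settings the limma adjusted p ran from 0.0343 to 0.461 for Egln3 and from 0.0393 to 0.461 for Gpi1. Hif1a, by contrast, differed by 0.05 ± 0.10 and Egln1 by 0.11 ± 0.23 on the log2 scale (SE).

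Among the other hypoxia-induced genes 7 of 13 were above 0 and 6 below, with a median of 0.09. The hormone gene Adm (adrenomedullin) ranged most: 0.274 to 10.7 RPKM in matKO with a median of 2.79, against 1.47, 1.81, 2.32 and 0.544 RPKM in CTR, a log2 difference of 0.62 ± 0.39 (SE). In females it had 3.61, 2.79, 4.46 and 10.7 RPKM in matKO against 1.47 and 1.81 RPKM in CTR, without overlap, and the adjusted p in females was 0.997 by limma. The authors' deposited table for ExE females lists Adm with a log2 ratio of 1.66. P4ha1 averaged 17.6 ± 3.63 RPKM in matKO and 13.2 ± 1.07 RPKM in CTR, Car9 (carbonic anhydrase IX) 1.14 ± 0.38 RPKM in matKO and 0.695 ± 0.17 RPKM in CTR, and Mxi1 (a MYC antagonist) 2.03 ± 0.63 RPKM in matKO and 1.34 ± 0.32 RPKM in CTR, with limma adjusted p of 0.234, 0.276 and 0.302.

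**Figure D4:**
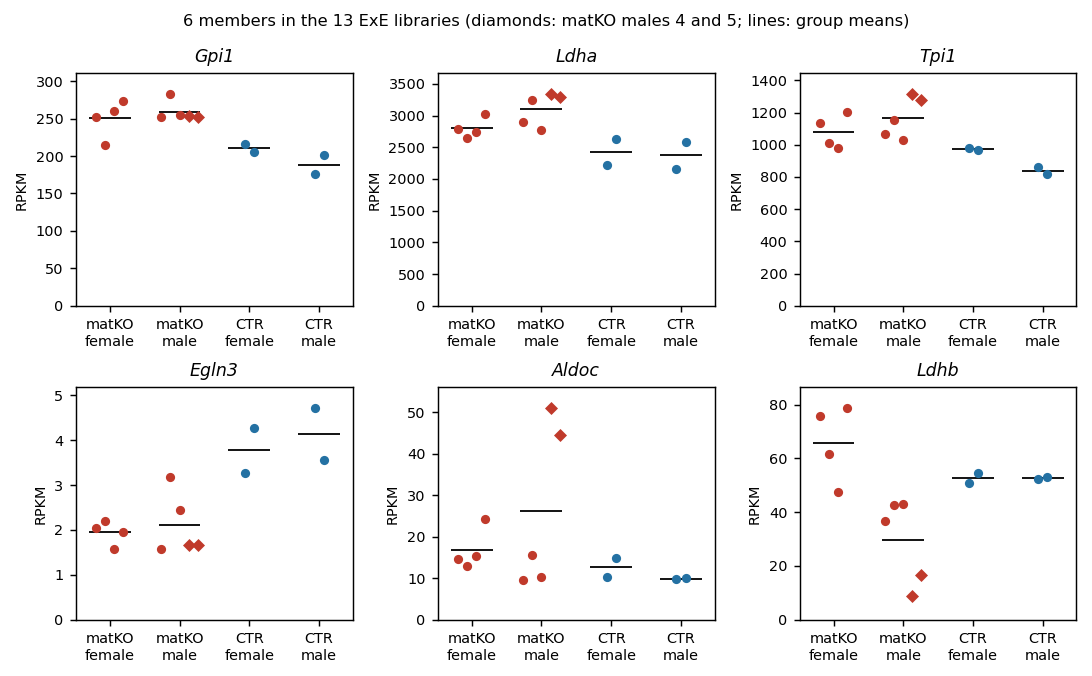
RPKM of 6 members in the 13 ExE libraries by genotype and sex, each point 1 library, diamonds for matKO males 4 and 5, lines for group means; axes start at 0. Ldha and Tpi1 are higher and Egln3 lower in every matKO library than in every CTR library, while Aldoc and Ldhb are set apart by matKO males 4 and 5.

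Some members differed mainly through matKO males 4 and 5, the libraries with a high sum of ectoplacental markers. That sum rested on the 2 of 6 markers that averaged at least 1 RPKM. Their ExE marker sums, 480 and 464 RPKM, were the lowest in matKO ExE. Male 4 also had the lowest Eed in ExE, 49.0 RPKM, and the fewest genes above 0, 13455. Aldoc, the brain-type aldolase, had 51.0 and 44.6 RPKM in males 4 and 5, against 9.51 to 24.4 RPKM in the other matKO libraries and 10.3, 14.98, 9.76 and 10.003 RPKM in CTR. Ldhb, the heart-type lactate dehydrogenase subunit, had 8.71 and 16.7 RPKM in them, against 36.6 to 78.6 RPKM in the other matKO libraries and 50.9, 54.6, 52.2 and 52.9 RPKM in CTR. Of the 13 ExE libraries, matKO male 4 was the highest for 14 of the 37 members and the lowest for 6. Without both males the log2 difference of Aldoc was 0.28, against 0.67 with them, and that of Ldhb was -0.04, against -0.37. The differences of Gpi1 (0.36), Ldha (0.27), Tpi1 (0.26) and Egln3 (-0.65) changed less. Still 0 of the 35 members tested without both males had an adjusted p under 0.05 by limma, where 69 of 9904 genes did. With both males 5 of 9915 genes did. The part of cell composition in these differences was not tested beyond leaving both libraries out. The authors' deposited table for ExE males lists Aldoc with a log2 ratio of 1.40.

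By sex, 0 of 36 members passed in females (0.0202% of all genes did, limma) and 0 in males (0.0403%). At an unadjusted p under 0.05 there were 2 members in females, against 4.56% of all genes, and 8 in males, against 14.7%. In females 5 members lay wholly above CTR and 2 below (9.48% and 8.1% of all genes did), and in males 7 lay above and 3 below (10.8% and 8.08%). In males the log2 differences of Gpi1, Tpi1, Aldoa, Slc16a3 and Ldha were 0.46, 0.47, 0.46, 0.80 and 0.39, and in these 5 genes every matKO male lay above both CTR males. The difference of the genotype effect between sexes passed for 0 members and for 0.0% of genes, and no member had an unadjusted p under 0.05, with the largest interaction for Ldhb (1.32 ± 0.70, SE, adjusted p = 0.99 by limma). Between females and males 0 members passed, against 0.0504% of genes; the smallest p belonged to Pfkfb3, with a log2 difference of 0.44 ± 0.17 (SE) and a limma adjusted p of 0.999.

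None of the genes of the neighbouring pathways passed in ExE, where 0.0504% of all genes tested did. The counts below are at an unadjusted p under 0.05, which 16.1% of all genes tested had. The share was 22.2% for the further hypoxia-induced genes and 14.3% for the further glycolysis genes, both near that of all genes. Of 21 tested genes of pyruvate dehydrogenase and the TCA cycle 8 had an unadjusted p under 0.05 (38.1%), with the smallest for Idh3g, an isocitrate dehydrogenase subunit, at 391.9 ± 54.0 RPKM in matKO and 337 ± 38.8 RPKM in CTR and an adjusted p of 0.124 by limma. Of 7 pentose phosphate genes there were 3, led by Tkt, transketolase, at 56.6 ± 10.02 RPKM in matKO and 44.1 ± 3.13 RPKM in CTR. Of 18 further hypoxia-induced genes there were 4, led by Fam162a at 775 ± 216 RPKM in matKO and 487 ± 59.8 RPKM in CTR, with adjusted p of 0.192 for Tkt and 0.179 for Fam162a by limma. Of 14 further glycolysis genes there were 2, led by Bsg (basigin, the partner of lactate transporters), at 1430.2 ± 211 RPKM in matKO and 1197 ± 83.7 RPKM in CTR, with a limma adjusted p of 0.254, and of 11 further HIF pathway genes none.

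In morulae, Ldha was the member with the largest difference between genotypes, and it was higher in matKO. It had 23.6 and 36.7 RPKM in matKO against 7.15 and 17.9 RPKM in CTR. The groups did not overlap, and the log2 difference of 1.29 ± 0.50 (SE) had an unadjusted p of 0.0443 and an adjusted p of 1.0 by limma with 2 libraries a group. Without any 1 of the 4 libraries it lay between 0.69 and 1.90. With a block for the replicate number, the limma adjusted p of Ldha was 0.000121 and 164 genes passed in all. The labels do not say that these numbers mark pairs, and 2 pairs leave few degrees of freedom. The authors' deposited table of morula genes higher in matKO lists Ldha with a log2 ratio of 1.26, and their table of lower genes lists Pgk1 with -1.83, a gene that was under 1 RPKM on average in morulae and not tested here. In all, without that block, 29 members were tested, 0 passed (0.0% of 10329 genes did) and 1 had an unadjusted p under 0.05, against 0.891% of genes. On simulated data the same test, without the block, passed 0% of genes changed by 1 or 2 on the log2 scale. The simulated libraries varied independently, with no shift shared by libraries of the same number. It passed 50% of those changed by 3. The count of 0 without the block therefore cannot tell no change from changes of the size seen for Ldha. Between the groups 5 members lay wholly above and 1 below, where 10.3% of genes lay above and 8.81% below.

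Ddit4 had 23.5 and 32.7 RPKM in matKO morulae against 19.1 and 15.2 RPKM in CTR morulae, without overlap, and Pgam1, phosphoglycerate mutase, had 23.7 and 19.1 RPKM in matKO against 15.8 and 14.1 RPKM in CTR, also without overlap. Their log2 differences were 0.67 ± 0.34 and 0.48 ± 0.31 (SE). Epas1 had 30.6 and 45.6 RPKM in matKO against 13.3 and 33.2 RPKM in CTR, and Slc2a3 had 5.67 and 11.2 RPKM in matKO against 8.26 and 19.0 RPKM in CTR, with log2 differences of 0.79 ± 0.51 and -0.59 ± 0.51 (SE). These groups overlapped, as they did for Tpi1, at -0.49 ± 0.73. In both genotypes library 2 was the higher of the pair for Tpi1, Slc2a1, Slc2a3, Ldha, Epas1 and Egln1. In these genes the libraries of the same number thus shifted alike, and the fit without a replicate block counted this shared shift as spread within a group. Of the neighbouring lists, Plod2, a lysyl hydroxylase gene, had the largest log2 difference, 2.13 ± 1.07 (SE), with an adjusted p of 1.0 by limma.

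Maternal and paternal transcripts were told apart at variants between the B6/129 and PWK genomes. There was no reciprocal cross, so effects of parent and of strain cannot be told apart. For Ldha in morulae, 15 of 63 allelic reads (23.8%, 95% Wilson interval 14.99 to 35.6) and 22 of 167 (13.2%, 8.86 to 19.1) were maternal in matKO, against 7 of 19 (36.8%, 19.1 to 59.0) and 30 of 67 (44.8%, 33.5 to 56.6) in CTR. As reads per 1000000 allelic reads of the library, paternal Ldha stood at 14.4 and 28.4 in matKO against 3.10 and 8.30 in CTR, without overlap, and maternal Ldha at 4.51 and 4.31 in matKO against 1.81 and 6.73 in CTR, with overlap. The log2 change of the maternal to paternal ratio was -1.78, with an unadjusted p of 0.0211 and an adjusted p of 1.0 by edgeR, and none of the 23 members tested in morulae passed, where 0.0254% of 7872 genes did. In ExE Ldha was near even, with a maternal share of 48.7% in matKO and 50.1% in CTR.

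In ExE 34 members were tested with limma on allelic RPKM and 0 passed, where 0.341% of 9666 genes did. At an unadjusted p under 0.05 there were 5 members, against 903 of the 9666 genes. They were Gpi1, Higd1a, Kdm3a, Bnip3 and Pgk1, whose ratio has no meaning in males, which lack a paternal X. Gpi1 had a maternal share of 53.8 to 58.6% in matKO and 51.2 to 55.0% in CTR, a log2 difference of 0.22 ± 0.06 (SE) with an adjusted p of 0.173 by limma. Pgk1 is X-linked and was read by sex: paternal Pgk1 ranged from 82.7 to 390.0 allelic RPKM in matKO females against 4.64 and 18.3 in CTR females, without overlap, while it ranged from 0 to 1.77 in matKO males and stood at 0.619 and 0.333 in CTR males, whose X is maternal. Maternal Pgk1 stayed at 0.825 to 3.09 allelic RPKM in matKO females against 3.38 and 3.30 in CTR females. Total Pgk1 did not follow the allelic values, with 71.2 to 87.2 RPKM in matKO females against 65.2 and 73.6 RPKM in CTR females. In males, maternal Pgk1 was 2.51 to 10.1 allelic RPKM in matKO and 9.10 and 6.03 in CTR, while total Pgk1 was 71.3 to 112 RPKM in matKO and 74.7 and 70.6 RPKM in CTR. The maternal and paternal values of Pgk1 are therefore not on the scale of its total, and no maternal share is given for it.

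Several members had maternal transcripts in excess in morulae and were closer to balance in ExE. Slc2a3 was 53.8 ± 4.99% maternal in matKO ExE (SD, n = 9) against 84.2 ± 3.72% in matKO morulae (n = 2), and 52.6 ± 3.01% in CTR ExE (n = 4) against 91.3 ± 0.27% in CTR morulae (n = 2). P4ha2 was 68.8 ± 10.6% maternal in matKO ExE against 93.8 ± 4.21% in matKO morulae, and 60.8 ± 6.45% in CTR ExE against 90.7 ± 2.37% in CTR morulae. Bnip3, with 2164 to 3370 allelic reads per morula library, was 59.5 ± 1.48% maternal in matKO ExE against 80.6 ± 2.80% in matKO morulae, and 61.5 ± 0.26% in CTR ExE against 80.3 ± 1.22% in CTR morulae. In these 3 genes the ExE libraries lay below the morula libraries. Pfkl leaned to the paternal side in morulae, with 47.8 ± 1.77% maternal in matKO ExE against 25.0 ± 15.2% in matKO morulae, and 46.8 ± 1.88% in CTR ExE against 17.6 ± 15.1% in CTR morulae, where it had only 29 to 56 allelic reads per library. Ldhb was mostly maternal in ExE, at 84.2 ± 5.27% in matKO and 80.1 ± 2.35% in CTR. Pgam1 was almost wholly assigned to the paternal genome, at 0.34 ± 0.39% maternal in matKO ExE and 0.61 ± 0.43% in CTR ExE. In morulae its share was 1.74 ± 0.11% in matKO and 1.76 ± 0.17% in CTR. With no reciprocal cross, effects of parent, of strain and of how reads were assigned cannot be told apart for Pgam1, and none was tested. Morula shares come from reads and ExE shares from allelic RPKM. The kinds of table gave Eno1 different shares in ExE, 13.9% in matKO and 14.7% in CTR by RPKM, and 73.0% in matKO and 72.5% in CTR by reads, so it is not placed in either group.

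**Figure D5:**
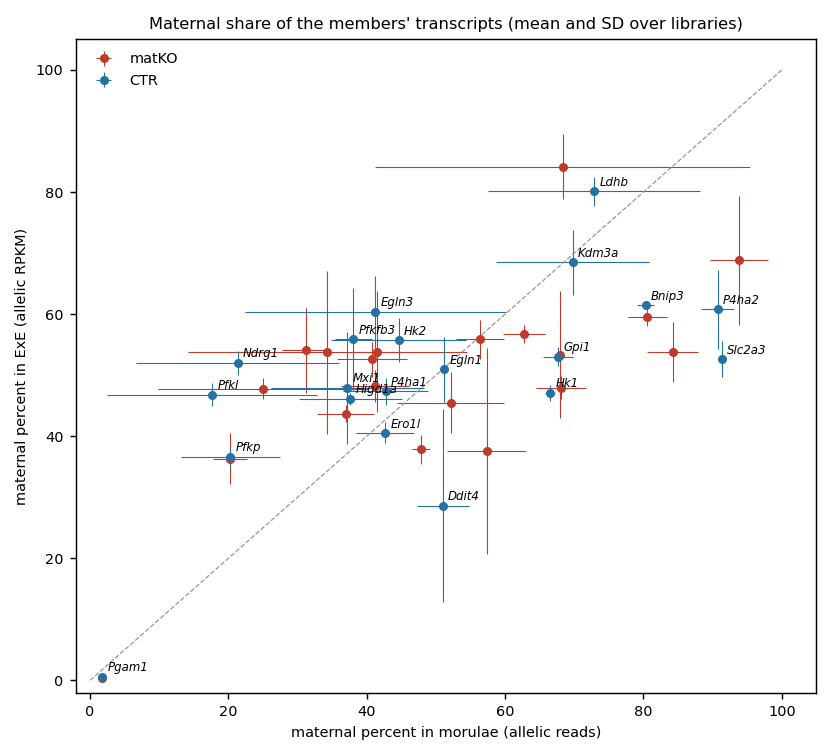
Mean maternal share in percent, in morulae from allelic reads (x axis) and in ExE from allelic RPKM (y axis), with SD over libraries, for the 20 members with at least 20 allelic reads in every morula library, Eno1 left out; gene names stand at the CTR points and the dashed line marks equal shares. Slc2a3, P4ha2, Bnip3 and Hk1 lie below the line and Pfkl and Pfkp above it, in matKO and in CTR alike.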

How the data were processed

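The series held 17 RNA-seq libraries, analysed here, and 2 CUT&RUN samples, not analysed here. Low-input cDNA was tagmented into libraries, per the labels' protocols. Named in the submitters' processing notes are HISAT2 2.1.0 and Cufflinks 2.2.1 and mm9, without their roles. The authors deposited RPKM of all genes per library and RPKM per parental allele; depth behind RPKM is unknown. Allelic read counts were also deposited by the authors, with 3327373 to 5109159 reads per morula library; intervals cover counting error only. Lists of changed genes deposited by the authors give log2 ratios; 21 per-sample columns were not used. The coordinates printed for promoters are GRCm38.p6 and were not joined to mm9. Of the 13 ExE count columns 3 were closest to the total RPKM of the library they are named for, against 13 of 13 for allelic RPKM, so allelic tests in ExE used RPKM and ExE reads serve as genotype means.

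In R 4.3.3, limma 3.58.1 with a trend tested total expression as log2(RPKM + 1), a scale that understates changes of low genes, for genes averaging at least 1 RPKM in the stage, with 1 mean per genotype and sex in ExE. The same tool tested log2((maternal RPKM + 1)/(paternal RPKM + 1)) in ExE. For morula alleles (genes averaging at least 20 reads), quasi-likelihood fits of edgeR 4.0.16 held a term per library and tested how the allele effect differed between genotypes. The threshold was a Benjamini-Hochberg adjusted p of 0.05 over all genes. Tests were tried on simulated data. Alternatives were pseudocount 0.1, no filter or 5 RPKM (50 reads), quantile and median scaling, no trend, genotype only, a threshold of 2 between stages, TMM, DESeq2 1.42.0, a replicate block, leaving out each library, and leaving out matKO males 4 and 5. Replicate numbers in the labels do not pair the ExE libraries. All 37 members may be named; values per library are given for those with the largest differences per contrast or stage, and neighbouring genes by the smallest p where none passed; the neighbouring genes named for the stages and for Plod2 were chosen after their values were seen. The members and lists were chosen with earlier results of these data known. Python 3.11.15, pandas 2.3.3, numpy 2.4.6 and matplotlib 3.10.9 were used for summaries and figures.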

Additional observations from a re-analysis of the deposited data

Results flagged for a closer look

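Of 74 groups of values (37 members in matKO females and in matKO males), 5 held a library set apart from the rest by Dixon's criterion, which chance alone gives in about 5% of groups. Female 4 of matKO was the highest of its group for Eno1 (281 RPKM, next 241), Slc2a1 (227 RPKM, next 177) and Ddit4 (3.22 RPKM, next 1.92). Female 3 of matKO was the highest for Hif1a (51.8 RPKM, next 39.1). Male 2 of matKO was the highest for Gpi1 (282 RPKM, next 254).

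Egln3 lay in opposite directions at the 2 stages, though in morulae by little and near the bottom of the RPKM range. All matKO ExE libraries were below all CTR ExE libraries, at 0.514 times the CTR mean, while matKO morulae, at 1.07 and 1.15 RPKM, were above CTR morulae, at 0.981 and 0.795 RPKM. In morulae Egln3 averaged under 1 RPKM and was not tested, and 10.3% of the genes tested there lay wholly above CTR. The difference between the stages was not tested.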

How the results depend on the processing

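Counts of members kept to within 1.5 times the values given under 190 of 196 combinations of result and setting. The exceptions in ExE, averaged over the sexes, were 1 member passing with genotype only (Egln3, adjusted p = 0.0417 by limma) and a range of 0 to 1 when single libraries were left out (Egln3 without matKO male 2, Gpi1 without matKO female 2). In morulae 1 member passed with a replicate block (Ldha, adjusted p = 0.000121 by limma, where 164 genes passed in all); the libraries of 2 pairs leave few degrees of freedom, and same-number libraries correlated at 0.702, a value that is the same for both pairs by construction. In ExE same-number correlations ran from -0.04 to 0.06 and the replicate block passed 0 members. With a threshold of 2 between stages, 2 members were lower in ExE in matKO and 2 in CTR, against 5 in each. Leaving out single morula libraries gave Ldha a log2 difference of 0.69 to 1.90, against 1.29. Of the single members recomputed, Pfkfb3 was the one whose stage difference changed sign: in CTR, without 1 or the other morula library, it was -2.20 or 0.14, against -1.03, and it was counted as neither higher nor lower. Median scaling moved the median stage difference of all genes to -0.17 in matKO and -0.15 in CTR, against 0.19. Counts over all genes moved more: 3 to 69 genes passed in ExE averaged over the sexes (5 as given, 38 with no filter, 69 without matKO males 4 and 5), 1 to 12 in females (2 as given), 1 to 15 in males (4 as given), 0 to 164 in morulae (0 as given), and for alleles 10 to 96 in ExE (33 as given) and 0 to 123 in morulae (2 as given). The depth behind RPKM is unknown, and with 2 libraries in each morula group and 2 CTR libraries per sex few libraries bear on each comparison.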
